A study of Mus musculus with 4 samples.

Results

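Complex I of the respiratory chain oxidises NADH and passes its electrons to ubiquinone, and the messenger RNA of 35 of its nuclear-encoded subunits was measured in cells of mouse kidney. The 35 genes were chosen by symbol and all 35 were among the 32285 genes of the files. They accounted for 1820469 UMIs (unique molecular identifiers, 1 per captured transcript), which was 0.854% of all UMIs in 30428 kept cells.

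Kidneys had been taken from mice with a single-base change in TrnE, which encodes the glutamate transfer RNA of mitochondria, and from wild-type C57BL/6J mice, dissociated with enzymes, sorted for viable cells and read with a droplet single-cell kit. Mutant library 1 came from a mouse with a mutation load of 79% and mutant library 2 from a mouse with a load of 76%, and there were 2 wild-type libraries. The load is the share of mitochondrial genomes that carry the mutation. Age, sex, litter and any pooling of animals were not found in the labels, and the genotype of a library could not be checked from these counts.

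Complex I has a matrix arm and a membrane arm. In the matrix arm the NADH module binds NADH and the ubiquinone module hands the electrons on, while the proximal and distal parts of the membrane arm pump protons. The core of the membrane arm is encoded by the mitochondrial genome and made with mitochondrial transfer RNAs, whereas the genes described here are nuclear and are made on cytosolic ribosomes. Renal tubule cells depend on respiration to drive salt transport and are known for their many mitochondria.

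The kept cells numbered 9535 and 8916 in mutant libraries 1 and 2 and 5671 and 6306 in wild-type libraries 1 and 2, and the libraries held between 42121175 and 70013861 UMIs in all. Pairs of libraries shared 14 to 26 cell barcodes. Wild-type library 2 stood apart. It had the highest level of Malat1, a nuclear-retained RNA, in 9 of the 9 classes tested, and 31.8% of its proximal tubule cells lay in clusters rich in nuclear RNA. It also had few macrophages (56) and few dendritic cells (58). Medians between genotypes are therefore given with and without it. The software version used for counting differed between the genotypes, so the effects of version and genotype cannot be told apart.

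The first question was how the level of the subunits differs between nephron segments and immune cells. Cells were classed from marker genes, with the 35 subunits and all mitochondrial and other respiratory genes kept out of the clustering. Levels are in CPM, that is, UMIs scaled to the same total for every sum of the cells of a class within a library, and class values are the mean ± SD over the libraries (n = 4, genotypes together). The summed level of the 35 subunits was highest in intercalated cells, the acid and base secreting cells of the collecting duct, at 25911 ± 6569 CPM. It was 20107 ± 771 CPM in the distal convoluted and connecting tubule and 19789 ± 2385 CPM in the thick ascending limb, segments that reabsorb salt against a gradient. The proximal tubule, where most filtered salt and water is taken back, had 16439 ± 3867 CPM and the thin limb 11833 ± 4265 CPM. The library values of each pair of neighbours in this order overlapped. Compared within each library, the thick ascending limb was above the proximal tubule in every library. The proximal tubule was likewise above the thin limb in every library. The steps from intercalated cells to the distal convoluted and connecting tubule, and from there to the thick ascending limb, changed sign between libraries.

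**Figure D1:**
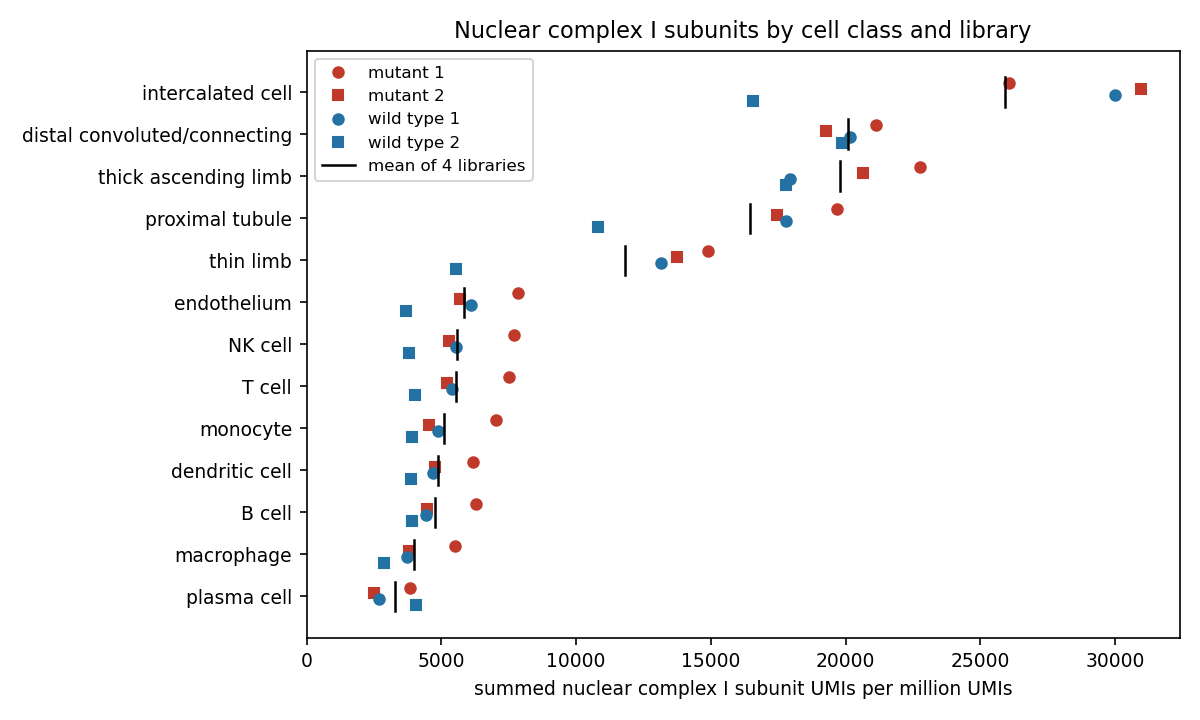
Summed level of the 35 nuclear complex I subunits in CPM (horizontal axis) in 13 cell classes present with at least 20 cells in all 4 libraries (vertical axis). Points are libraries and black bars are means; tubule classes lie between 5530 and 30981 CPM and the immune classes between 2496 and 7693 CPM.

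Endothelial cells had 5825 ± 1697 CPM. Immune classes ran from 5571 ± 1606 CPM in NK cells and 5537 ± 1451 CPM in T cells, through monocytes, dendritic cells and B cells, to 3970 ± 1102 CPM in macrophages and 3275 ± 795 CPM in plasma cells. The spread within each of these classes was larger than the steps between neighbours, but it includes differences between libraries that the classes share. Within every library T cells were above monocytes and B cells above macrophages. The other steps between neighbours changed sign between libraries. Counted per cell, the order changed: intercalated cells held 176 ± 31.4 subunit UMIs, the thick ascending limb 143 ± 26.0, the proximal tubule 96.9 ± 7.40, plasma cells 97.5 ± 4.69, dendritic cells 69.9 ± 11.5 and T cells 29.1 ± 1.37. A count per cell carries the total RNA captured from the cell, and plasma and dendritic cells were the most deeply covered immune classes.

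In every library the proximal tubule was above the T cells. The subunits summed to 19680, 17453, 17798 and 10827 CPM in the proximal tubule of mutant 1, mutant 2, wild type 1 and wild type 2. In T cells the same libraries had 7517, 5202, 5398 and 4032 CPM. Even the lowest proximal tubule value, in wild-type library 2, was above the highest T cell value. As a gauge of free RNA, summed proximal tubule markers were at 204 to 664 CPM in T cells against 19463 to 24829 CPM in the proximal tubule.

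All 35 subunits were higher in the 3 tubule classes with enough cells for a test (proximal tubule, distal convoluted with connecting tubule, and thick ascending limb) than in the 6 immune classes (T, NK and B cells, monocytes, dendritic cells, macrophages). The threshold was an adjusted p of 0.05 in the quasi-likelihood test of edgeR after Benjamini-Hochberg adjustment, and the largest adjusted p of a subunit was 6.95e-16. The same fit served the contrasts between named classes below. Its units were the sums of each class in each library, with the library as a block. Its p-values and standard errors rest on several sums from each of 4 libraries, so they do not measure the spread between mice. Of all 13457 genes tested, 41.9% were called higher in tubule classes and 81.3% in either direction. The median log2 difference was 2.05 over the subunits, with a range from 1.34 to 2.77, and 0.02 over all genes. For 35 of 35 subunits every library's tubule mean was above every library's immune mean.

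**Figure D2:**
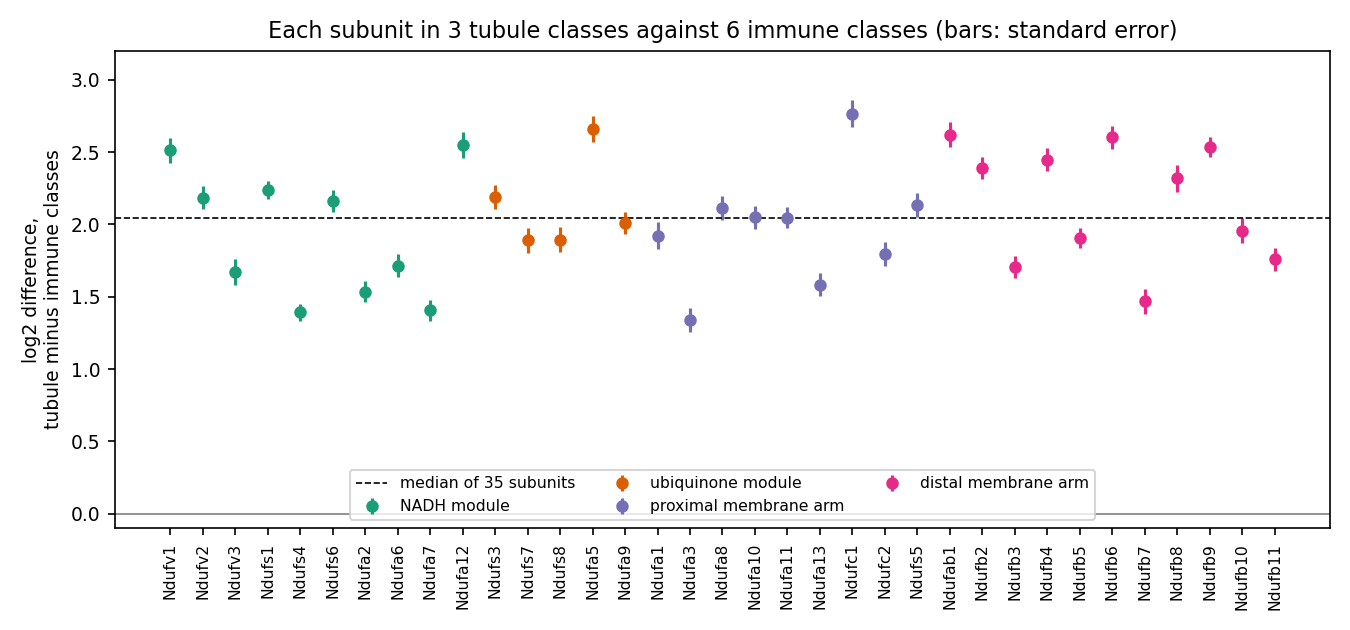
Log2 difference in level between 3 tubule and 6 immune classes (vertical axis) for each of the 35 subunits (horizontal axis), coloured by module, with the standard error. All lie above 0, between Ndufa3 at 1.34 and Ndufc1 at 2.77.

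The widest difference was that of Ndufc1, an accessory subunit of the membrane arm (ENSMUSG00000037152, chr3:51404677-51408988, minus strand, in mm10 coordinates). Its tubule mean was 763, 685, 794 and 663 CPM in mutant 1, mutant 2, wild type 1 and wild type 2, and its immune mean was 160, 90.3, 117 and 87.4 CPM. The groups of values were far apart, and the log2 difference was 2.77 (SE 0.09). Ndufa5, an accessory subunit of the ubiquinone module (chr6:24518666-24528013, minus strand), followed with a log2 difference of 2.66 (SE 0.09). Ndufab1, the mitochondrial acyl carrier protein, which is bound to the membrane arm and also serves fatty acid synthesis (chr7:122085403-122101886, minus strand), had 2.62 (SE 0.09). Genes named as near copies of Ndufab1, Ndufb4 and Ndufa11 exist, and how reads were split between them is not recorded in the labels, so values of these 3 are uncertain to that extent.

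The narrowest differences were still 2.54-fold to 2.65-fold. Ndufa3, a small membrane arm subunit (chr7:3617373-3620327, plus strand), had tubule means of 490, 404, 561 and 280 CPM and immune means of 260, 153, 238 and 94.97 CPM in the same order of libraries. Wild-type library 2 was lowest on both sides, and its tubule value was close to the immune value of mutant library 1. The log2 difference was 1.34 (SE 0.08). Ndufs4, an accessory subunit of the NADH module whose loss causes a Leigh-like disease (chr13:114287795-114388258, minus strand), had 1.39 (SE 0.06), and Ndufa7 of the same module (chr17:33824572-33838317, plus strand) had 1.41 (SE 0.07).

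By module, the median log2 difference was 1.94 for the 10 subunits of the NADH module, 2.01 for the 5 of the ubiquinone module, 2.05 for the 9 of the proximal membrane arm and 2.32 for the 11 of the distal membrane arm. Each module held subunits on both sides of the overall median, so no module lay wholly at 1 end. The other genes of the pathway differed less evenly. Of 16 complex I assembly factors tested, 15 were higher in tubule classes, with a median of 1.02. All 7 mitochondrially encoded complex I subunits were higher (median 2.55), as were all 39 nuclear subunits of complexes II to V (median 2.19). Of 8 regulators of respiratory genes, 4 were higher and 3 lower.

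Promoter windows show what sequence these genes share near their start. RefSeq windows (GRCm38.p6) from 220 bases before to 30 bases after the start were matched by symbol for 32 of the 35 members, as 34 windows. The 4 printed here, 5′ to 3′, are those of the subunits with the widest, second widest and narrowest difference, and that of Ndufb4, a distal membrane arm subunit, which holds the most matches. Capitals mark matches on either strand to the nuclear respiratory factor 1 motif or to ATGGCGGC.
Ndufc1: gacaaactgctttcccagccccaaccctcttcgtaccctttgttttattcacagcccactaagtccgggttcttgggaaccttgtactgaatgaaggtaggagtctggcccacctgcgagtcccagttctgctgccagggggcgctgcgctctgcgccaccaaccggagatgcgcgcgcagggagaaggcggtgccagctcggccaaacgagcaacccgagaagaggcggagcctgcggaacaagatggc
Ndufa5: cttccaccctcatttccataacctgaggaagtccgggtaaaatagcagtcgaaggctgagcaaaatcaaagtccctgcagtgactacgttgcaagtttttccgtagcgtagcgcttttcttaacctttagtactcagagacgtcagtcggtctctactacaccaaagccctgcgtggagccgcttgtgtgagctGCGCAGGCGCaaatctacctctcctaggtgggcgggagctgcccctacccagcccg
Ndufa3: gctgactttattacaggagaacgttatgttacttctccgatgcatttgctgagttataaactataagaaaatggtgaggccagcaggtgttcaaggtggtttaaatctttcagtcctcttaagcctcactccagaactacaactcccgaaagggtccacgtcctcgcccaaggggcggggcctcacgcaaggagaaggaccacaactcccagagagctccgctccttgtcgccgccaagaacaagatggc
Ndufb4: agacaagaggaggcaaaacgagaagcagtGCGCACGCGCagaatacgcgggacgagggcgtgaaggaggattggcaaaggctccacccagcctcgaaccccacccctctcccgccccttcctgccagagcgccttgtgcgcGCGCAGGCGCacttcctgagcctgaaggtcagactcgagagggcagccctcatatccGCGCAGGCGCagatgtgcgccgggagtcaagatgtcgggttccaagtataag

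The windows lie at chr3:51408926-51409175 (minus strand), chr6:24527661-24527910 (minus strand), chr7:3617153-3617402 (plus strand) and chr16:37654339-37654588 (minus strand). The nuclear respiratory factor 1 motif was found on either strand in 20.6% of the 34 member windows and in 4.25% of all 32851 windows. The members concerned were Ndufa5 (2 overlapping windows), Ndufa8, Ndufa11, Ndufb4, Ndufs5 and Ndufs6. ATGGCGGC, letters like those known for YY1, was in 8.82% of member windows (Ndufa7, 2 overlapping windows, and Ndufb5) against 1.5% of all. CCGGAAG, an ETS family core, was in 8.82% against 8.10%, AAGGTCA in 5.88% against 3.89%, and TATAAA in 11.8% against 11.7%. The median GC content was 59.0% in member windows and 53.2% in all windows. Neither Ndufc1 nor Ndufa3, the ends of the range, held a capitalised match. These are matches of letters, not measured binding.

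The mix of subunits also varied between classes. In all, 29 calls in 18 subunits were made over 6 contrasts between named classes. Of all genes, 7.95% to 50.9% were called in these contrasts, and in each the share of subunits called was smaller. All 18 subunits were chosen after their values were seen, since they were called. They are given with the share of each subunit in the summed level. The ratio of the highest to the lowest class share was 2.68 for Ndufc2, 2.22 for Ndufa5, 2.08 for Ndufa12 and 2.03 for Ndufc1, and below 2 for the other members over the 9 tested classes. Over the 13 classes with at least 20 cells in each library, the ratio was 3.31 for Ndufb8 (9.98% in the thin limb and 3.02% in NK cells) and 3.12 for Ndufa1 (6.02% in plasma cells and 1.93% in macrophages).

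**Figure D3:**
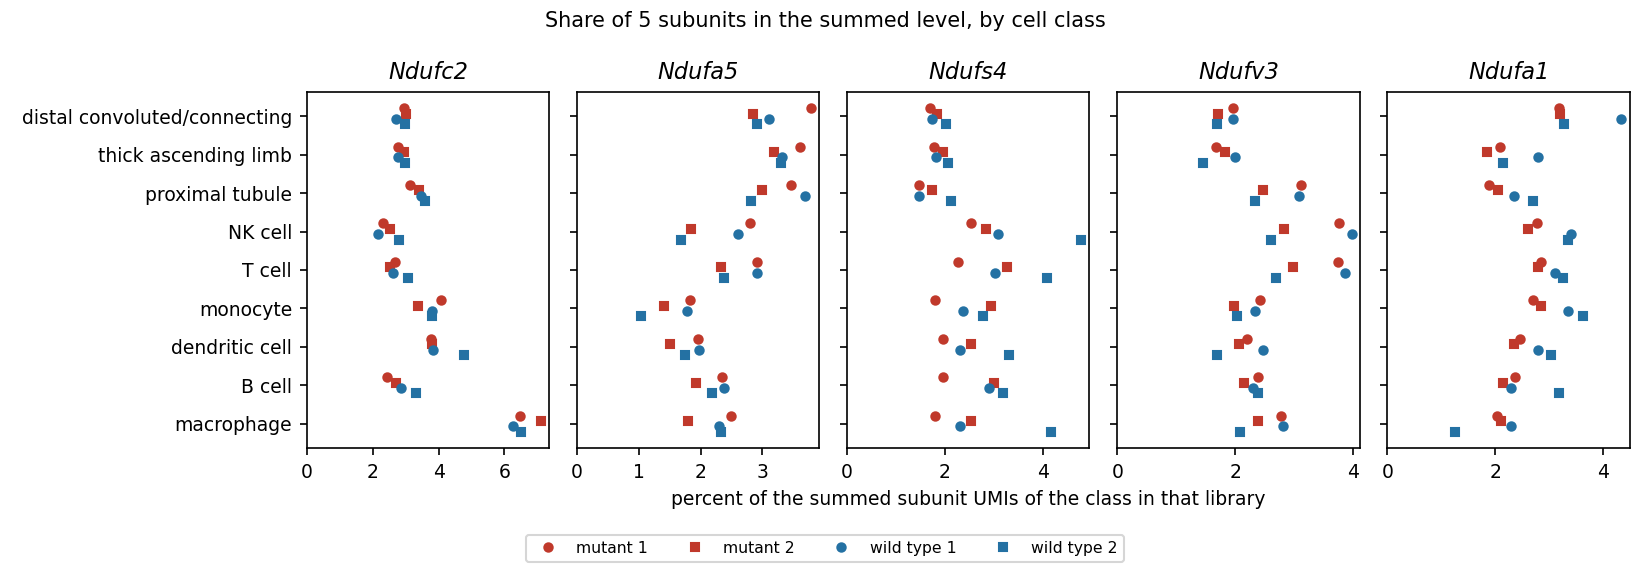
Percent of the summed subunit UMIs contributed by Ndufc2, Ndufa5, Ndufs4, Ndufv3 and Ndufa1 (horizontal axes) in the 9 tested classes (vertical axis), 1 point per library. Ndufc2 stands at 6.59% on average in macrophages and at 2.73% in T cells.

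Ndufc2, the membrane arm partner of Ndufc1 (chr7:97400003-97407802, plus strand), was higher in macrophages. It had 356, 271, 233 and 186 CPM in macrophages of mutant 1, mutant 2, wild type 1 and wild type 2, and 202, 132, 142 and 123 CPM in T cells. The macrophage value was above the T cell value in every library, although macrophages of wild-type library 2 rest on 78 Ndufc2 UMIs. Against T cells the log2 difference was 1.12 (SE 0.17) in edgeR's quasi-likelihood test. In that contrast 50.7% of all genes were called in either direction.

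The other 8 subunits called in macrophages against T cells were lower. Ndufa1, a small X-linked subunit of the membrane arm, had 112, 80.5, 85.7 and 35.8 CPM in macrophages and 215, 146, 168 and 132 CPM in T cells, with no overlap. The log2 difference was -0.67 (SE 0.19). Ndufs4 (-0.46, SE 0.12) and Ndufs1, the largest iron-sulphur subunit of the NADH module (-0.39, SE 0.13), were also lower, as were Ndufv3, Ndufb11, Ndufa11, Ndufa3 and Ndufa13. The count depends on the scaling: with library totals in place of TMM factors, 29 were lower and Ndufc2 was still higher, while the median of all genes in that contrast moved from 0.01 to -0.32.

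Monocytes differed from T cells in 9 subunits against 50.9% of all genes. Ndufa5 was lower (log2 difference -0.63, SE 0.19), with 129, 63.9, 86.8 and 40.4 CPM against 219, 121, 157 and 95.7 CPM, and lower in each library. Ndufv3 was lower as well. Ndufb8, of the distal membrane arm, was higher (0.70, SE 0.19), as were Ndufc2, Ndufs8, Ndufa6, Ndufb4, Ndufb2 and Ndufb3. Of the 8 alternatives, Ndufb8 and Ndufc2 were each called in 6, Ndufs8 in 4 and Ndufa6 in 2. Ndufb4 and Ndufb2 were each called in 1, and Ndufb3 in none. The split of calls depends on the scaling and the filter. With library totals 2 subunits were higher and 9 lower, while the median of all genes moved from -0.05 to -0.31, and with no filter on low counts 0 were higher and 4 lower. In B cells against T cells, where 30.3% of all genes were called, Ndufs8, an iron-sulphur subunit of the ubiquinone module, was higher (0.66, SE 0.18) and Ndufv3 lower (-0.53, SE 0.18), and with library totals 1 was higher and 9 lower.

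Within the nephron, the distal convoluted and connecting tubule had more Ndufa1 than the proximal tubule. Its values were 673, 618, 876 and 652 CPM against 371, 357, 418 and 293 CPM, without overlap, and the log2 difference was 0.64 (SE 0.18) in a contrast where 42.3% of all genes were called. Ndufa11 was also higher (0.37), and Ndufa6 (-0.59), Ndufv3 (-0.57) and Ndufs6 (-0.38) were lower. Of the 8 alternatives, Ndufa11 was called in 3, Ndufa6 and Ndufv3 each in 5 and Ndufs6 in 2. Scaled by library totals, 20 subunits were higher and 0 lower in this contrast, while the median of all genes moved from -0.04 to 0.27. Against the proximal tubule the thick ascending limb had less Ndufv3 (-0.61), Ndufa2 (-0.44) and Ndufb3 (-0.42), where 39.7% of all genes were called, and with library totals 16 subunits were higher and 0 lower. With RLE scaling 5 were higher and 1 lower. In this contrast Ndufv3 was called lower in 6 of the 8 alternatives, and Ndufa2 and Ndufb3 each in 2. Between the thick ascending limb and the distal classes, where 7.95% of all genes were called, only Ndufa1 passed the threshold (-0.64).

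Of the 29 calls, 5 passed the threshold in the same direction under all 8 alternatives: Ndufc2, Ndufa1 and Ndufs4 in macrophages against T cells, Ndufa5 in monocytes against T cells, and Ndufa1 in the distal against the proximal tubule. All 29 kept their sign.

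The second question was how each subunit differs between mutant and wild-type mice. No subunit passed the threshold in any of the 9 classes by edgeR's quasi-likelihood test, and DESeq2 also called 0. Over the 315 tests of a subunit in a class, 39 (12.4%) had an unadjusted p under 0.05 in edgeR and 46 (14.6%) in DESeq2, and the smallest adjusted p was 0.170. Over all genes in the same classes the shares were 7.03% and 4.19%. In edgeR the share of subunits under 0.05 differed between classes. It was 0% in the proximal tubule and 0% in the distal convoluted and connecting tubule, against 9.6% and 12.8% of all genes. In T cells it was 2.86% against 3.48%. It exceeded that of all genes in NK cells (14.3% against 4.73%), monocytes (5.71%, 2.95%), dendritic cells (11.4%, 4.5%) and B cells (17.1%, 3.77%). The thick ascending limb and macrophages, given below, had the highest shares. The direction was nearly uniform: 310 of the 315 log2 fold changes were positive, that is, higher in mutants. The groups have 2 libraries each, the p-values measure only the spread between these libraries, and the subunits were measured in the same libraries, so they do not count as separate evidence of a direction. In simulated data of the same depth the test found 59.6% of genes changed 4-fold and 5.1% of genes changed 2-fold in the proximal tubule.

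**Figure D4:**
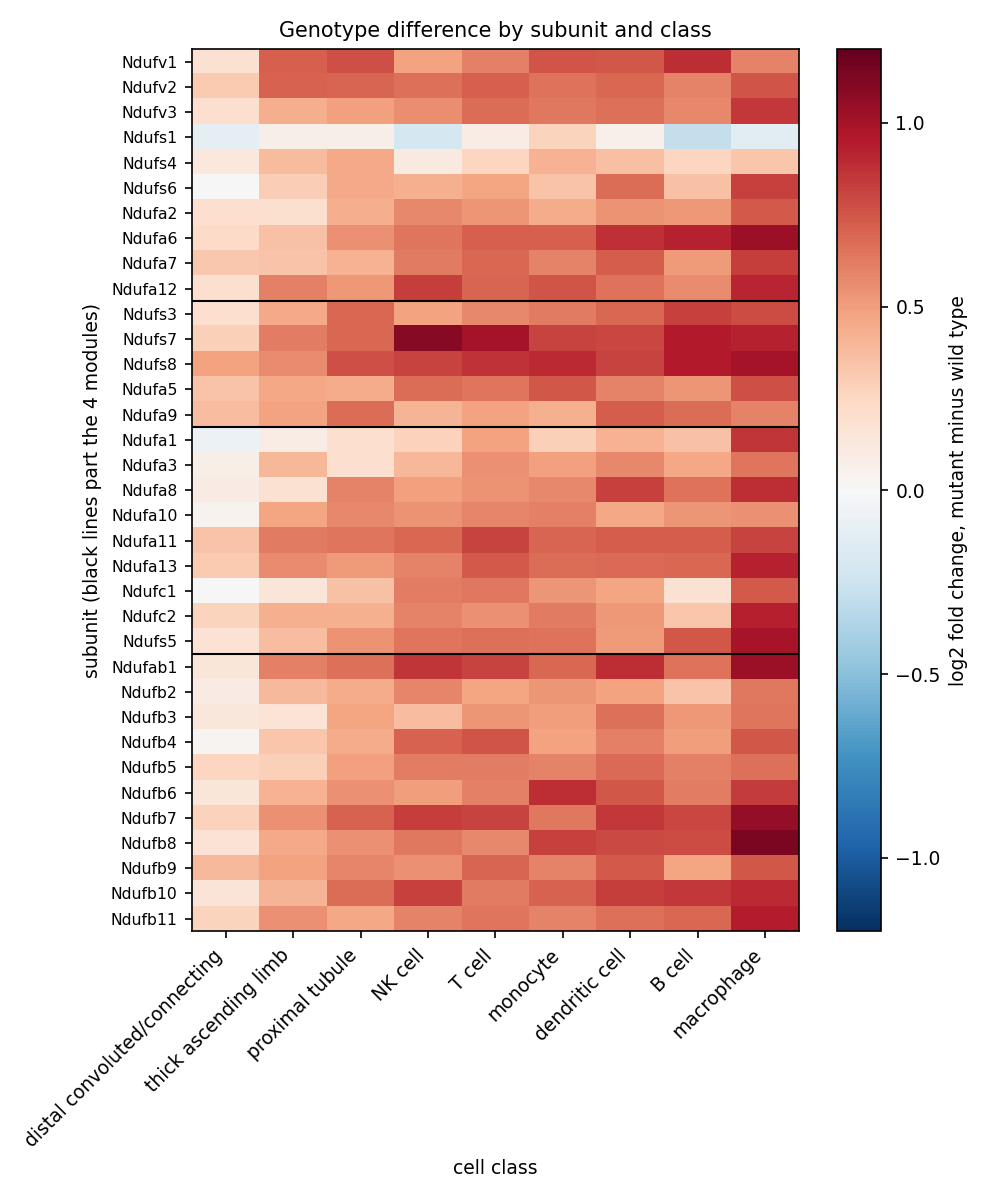
Log2 fold change, mutant minus wild type (colour), of the 35 subunits (vertical axis, ordered by module) in the 9 tested classes (horizontal axis). Most cells are red, class medians run from 0.20 to 0.82, and Ndufs1 has the lowest value in all 9 classes; no value passed the adjusted threshold.

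In the proximal tubule 0.527% of all 13276 genes were called. The median log2 fold change of the subunits was 0.52, against 0.02 over all genes, and 35 of 35 were positive, as were 51.1% of all genes. Ndufv1, which holds the flavin where NADH is oxidised (chr19:4007384-4012806, minus strand), had 305, 305, 272 and 117 CPM in mutant 1, mutant 2, wild type 1 and wild type 2. The 2 mutant values were alike, and wild-type library 2 was far below the other 3. The log2 fold change was 0.77 (SE 0.55, edgeR adjusted p = 0.674).

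Ndufs8 (chr19:3908863-3912774, minus strand) had 398, 377, 335 and 163 CPM in the proximal tubule, again with wild-type library 2 apart, and a log2 fold change of 0.77 (SE 0.55, edgeR adjusted p = 0.674). Ndufa9, an accessory subunit of the ubiquinone module that binds a nucleotide (chr6:126821721-126849136, minus strand), had 203, 236, 195 and 114 CPM, and 0.67 (SE 0.50, edgeR adjusted p = 0.679). Wild-type library 2 was lowest for these 3 subunits. Across the 35 subunits, wild-type library 2 had the lowest proximal tubule CPM for 34, and mutant library 1 had the highest for 27.

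The result in the proximal tubule rests on which wild-type library is used. Without wild-type library 2 the median was 0.10, 23 of 35 were positive and 0 were called, as were 0% of all genes. Without wild-type library 1 the median was 1.18 and 32 of 35 were called higher, in a fit that called 16.9% of all genes, for which the lone wild-type library was assumed to vary like the mutants. Without mutant library 1 or mutant library 2 it was 0.58 and 0.50.

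The clusters that made up the proximal tubule differed between libraries. The 3 clusters with over 20000 CPM of Malat1 held 20.5%, 6.93%, 19.1% and 31.8% of proximal tubule cells and 43.9%, 16.3%, 31.5% and 60.3% of their UMIs, in the order mutant 1, mutant 2, wild type 1, wild type 2. A mitochondria-poor cluster, with a median of 0.85% mitochondrial UMIs per cell, held 47.2%, 26.2%, 25.2% and 10.6% of cells. The subunits were lower in the nuclear-RNA-rich clusters, at 5545 to 13165 CPM in clusters 13 and 14, and higher in the mitochondria-poor cluster, at 23136 to 29003 CPM. Without the nuclear-RNA-rich clusters the median log2 fold change was 0.14, and without both kinds it was 0.12. Without the mitochondria-poor cluster alone it was 0.50, with 35 of 35 positive. These groupings of clusters were chosen after the data were seen.

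**Figure D5:**
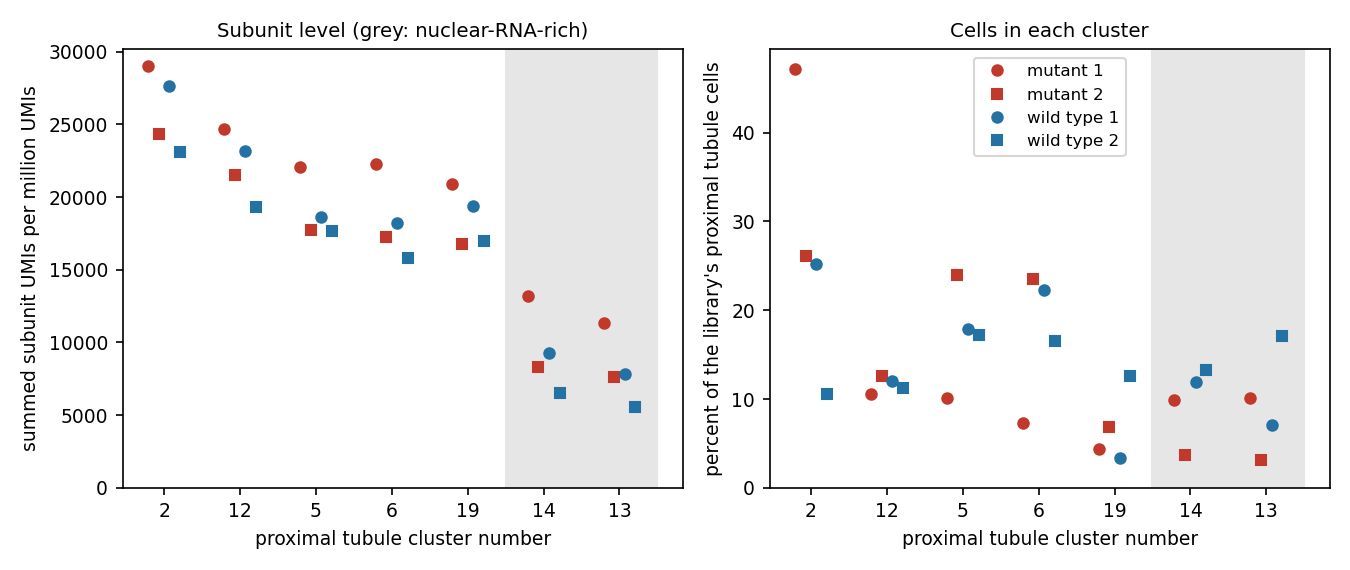
Left, summed subunit level in CPM in 7 proximal tubule clusters; right, percent of each library's proximal tubule cells in each cluster (points are libraries, horizontal axes are cluster numbers). The 2 shaded nuclear-RNA-rich clusters have the lowest subunit levels and hold the largest share of cells in wild-type library 2 for both.

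Fitted cluster by cluster, the median was 0.13 in cluster 2, 0.17 in cluster 5, 0.13 in cluster 6, 0.16 in cluster 12 and 0.07 in cluster 19. It was 0.60 in cluster 13 and 0.52 in cluster 14, both rich in nuclear RNA. No subunit was called in any of these 7 clusters, where the share of all genes called was 0.908%, 0.685%, 0.244%, 0.195%, 0%, 0.0473% and 0.332% in clusters 2, 5, 6, 12, 19, 13 and 14. Malat1 in cluster 14 was at 36233, 38659, 42164 and 61728 CPM in mutant 1, mutant 2, wild type 1 and wild type 2, highest in wild-type library 2, where the subunits were lowest.

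These cluster medians moved with single libraries. Without mutant library 1 the median was 0.20 in cluster 13, 0.07 in cluster 14 and -0.02 in cluster 2. Without wild-type library 2 it was 0.31 in cluster 13 and 0.27 in cluster 14, 0.04 in cluster 5, 0.07 in cluster 19, and -0.03, -0.0083 and -0.02 in clusters 2, 6 and 12. Without mutant library 2 it was 0.84 in cluster 14, where 3 subunits and 4.06% of all genes were called. Mutant library 2 had 38 cells in cluster 13 and 46 in cluster 14, below the 50 cells a library asked of the classes tested.

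The difference between nuclear-RNA-rich and other cells was not of 1 size for all subunits. From the 4 other clusters, leaving out the mitochondria-poor one, to the 3 nuclear-RNA-rich ones, the median log2 difference over the subunits was -1.25, and 34 of 35 were lower in all 4 libraries. Ndufv1 and Ndufs7, the iron-sulphur subunit next to the ubiquinone site, stood at -1.40 ± 0.35 each (SD, n = 4). Ndufs4 stood at -0.25 ± 0.08, and Ndufs1 at -0.08 ± 0.08, with 117, 124, 136 and 133 CPM in nuclear-RNA-rich and 115, 140, 143 and 140 CPM in other cells. Ndufs4 and Ndufs1 were picked out after their values were seen. Ndufs4 spans 100464 bases and Ndufs1 33238 bases (chr1:63143596-63176833, minus strand, for Ndufs1). Ndufa10, of 34851 bases, stood at -1.13 ± 0.15. Spearman's rho between the difference and gene length was 0.37 across the 35 genes, which are not independent replicates. The handling of intronic reads is not recorded in the labels. The part of intronic reads and that of gene length were not tested.

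Ndufs1 was also the subunit with the lowest log2 fold change between genotypes in 9 of 9 classes. In the proximal tubule it had 116, 146, 150 and 138 CPM, with no order by genotype, and a log2 fold change of 0.07 (SE 0.44). It was negative in the distal convoluted and connecting tubule, NK cells, B cells and macrophages. The only other negative value among the 315 was that of Ndufa1 in the distal convoluted and connecting tubule, at -0.07.

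The thick ascending limb had the smallest adjusted p-values. There 0.285% of all genes were called, the subunits' median was 0.42 and 10 of 35 (28.6%) had an unadjusted p under 0.05, against 18.3% of all genes. Ndufv2, an iron-sulphur subunit of the NADH module, had 774, 828, 550 and 541 CPM, with both mutants above both wild types. Its log2 fold change was 0.70 (SE 0.225, edgeR adjusted p = 0.170). Ndufv1 had 333, 352, 256 and 205 CPM (0.72, SE 0.24, edgeR adjusted p = 0.180). Ndufa12, listed in the NADH module, had 796, 702, 530 and 560 CPM (0.61, SE 0.22, edgeR adjusted p = 0.200). In this class 29 of 35 subunits had both mutant libraries above both wild-type libraries after scaling, against 24.6% of all genes. In CPM wild-type library 2 was close to wild-type library 1 here: the summed level was 22781, 20640, 17934 and 17802 CPM. The TMM factors behind the fold changes set them further apart, at 0.997 for wild-type library 1 and 1.12 for wild-type library 2. Scaled to nuclear-encoded UMIs alone, the summed level was 26991.2, 26907.7, 22885.5 and 20839.5, lowest in wild-type library 2. Without it the median was 0.37, and without wild-type library 1 it was 0.61, with 2 called where 7.67% of all genes were.

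In the distal convoluted and connecting tubule, where 0.0537% of all genes were called, the summed level was 21124, 19273, 20150 and 19881 CPM, with the genotypes interleaved. The median log2 fold change was 0.20. Ndufs8 had 424, 482, 374 and 367 CPM (0.48, SE 0.23, edgeR adjusted p = 0.421), Ndufb9 of the distal membrane arm had 1178, 1223, 1039 and 1059 CPM (0.39), and Ndufa9 had 217, 275, 219 and 216 CPM (0.37). Without wild-type library 2 the median was 0.15, and without mutant library 1 it was 0.14. Scaled by library totals the median was 0.0029, with 18 of 35 positive, while the median of all genes moved from -0.01 to -0.21.

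In the summed level of each of the 6 tested immune classes mutant library 1 was highest and wild-type library 2 lowest. In T cells the sum was 7517, 5202, 5398 and 4032 CPM, so mutant library 2 lay below wild-type library 1, and the same held in NK cells and monocytes. In dendritic cells, B cells and macrophages mutant library 2 lay just above wild-type library 1. The medians of these classes rest on mutant library 1. Without it they were 0.21 in T cells, 0.27 in NK cells, 0.22 in B cells, 0.26 in dendritic cells, 0.16 in monocytes (25 of 35 positive) and 0.40 in macrophages. Without wild-type library 2 they were 0.39, 0.36, 0.51, 0.43, 0.43 and 0.55 in the same order, and without mutant library 2 or wild-type library 1 they lay between 0.80 and 1.31.

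T cells, with 0% of all genes called, had a median of 0.62 with all 4 libraries. Ndufs8 had 132, 98.0, 82.6 and 62.4 CPM (0.87, SE 0.35, edgeR adjusted p = 0.757), Ndufs7 had 236, 152, 140 and 83.9 CPM (1.00, SE 0.44), and Ndufab1 had 202, 135, 120 and 103 CPM (0.81, SE 0.37). In each, the step from mutant library 2 to wild-type library 1 was smaller than the gap between libraries of 1 genotype.

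Ndufs8 was among the 3 subunits with the smallest p in NK cells and B cells too. In NK cells (0% of all genes called, median 0.60) Ndufs7 had 258, 172, 142 and 73.1 CPM (1.09, SE 0.41, edgeR adjusted p = 0.785), Ndufab1 had 0.86 (SE 0.36) and Ndufs8 0.81 (SE 0.36). In B cells (0% of all genes called, median 0.59) Ndufa6, which binds the acyl carrier protein, had 295, 256, 182 and 161 CPM (0.93, SE 0.31, edgeR adjusted p = 0.775), Ndufs8 had 0.95 (SE 0.33) and Ndufv1 0.89 (SE 0.35). Ndufa6 had both mutants above both wild types, while the summed level of mutant library 2, 4451 CPM, was close to the 4412 CPM of wild-type library 1.

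Macrophages had the largest median of the 9 classes with all 4 libraries, 0.82 (0.016% of all genes called), but 0.40 without mutant library 1, below the 0.58 of the proximal tubule and the 0.44 of the thick ascending limb. In macrophages 11 of 35 (31.4%) had an unadjusted p under 0.05, against 5.35% of all genes. Ndufab1 had 143, 95.5, 75.0 and 76.3 CPM (1.03, SE 0.40, edgeR adjusted p = 0.724), Ndufs8 had 116, 91.5, 76.3 and 47.7 CPM (1.00, SE 0.41), and Ndufs5, a membrane arm subunit, had 131, 88.5, 75.2 and 64.4 CPM (0.99, SE 0.41). Mutant library 1 was highest in all 3, and macrophages of wild-type library 2 rest on 56 cells. Without wild-type library 1, 3 subunits were called in macrophages (2.68% of all genes), 3 in NK cells (3.92%) and 1 in dendritic cells (4.15%). In dendritic cells (0% of all genes called, median 0.68) Ndufa9 had 0.72 (SE 0.30), Ndufv1 0.75 (SE 0.32) and Ndufa6 0.88 (SE 0.38, edgeR adjusted p = 0.657). In monocytes (0.0325% of all genes called, median 0.62) Ndufb6 of the distal membrane arm had 0.88 (SE 0.39), Ndufs8 0.89 (SE 0.41) and Ndufs7 0.81 (SE 0.39, edgeR adjusted p = 0.877).

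Counts of subunits with both mutant libraries above both wild-type libraries after scaling were 19 in the distal convoluted and connecting tubule (22.4% of all genes), 18 in the proximal tubule (21.7%), 19 in NK cells (20.6%), 16 in T cells (19.9%), 16 in monocytes (19.5%), 22 in dendritic cells (24.3%), 21 in B cells (19%) and 22 in macrophages (23.8%). The reverse order was seen in 2 of 315 tests, both for Ndufs1. In 9 of 9 classes the subunits' share of nuclear-encoded UMIs was highest in mutant library 1 and lowest in wild-type library 2, and in 9 of 9 Malat1 was highest in wild-type library 2. Its log2 fold change was negative in all 9 classes, from -1.04 (SE 0.86) in the proximal tubule to -0.46 (SE 0.36) in NK cells. Malat1 passed the threshold in no class, with edgeR adjusted p from 0.367 in the thick ascending limb to 0.877 in monocytes. The part of nuclear RNA in the subunit values was not tested in any class.

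The scaling moves these values. With library totals in place of TMM factors the median of all genes in the proximal tubule moved from 0.02 to -0.20, and that of the subunits from 0.52 to 0.38. Under that scaling the subunits' median was 0.41 in T cells, and 0.47 in macrophages, where the median of all genes moved from 0.01 to -0.28.

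Whether the genotype difference of a subunit itself differs between the proximal tubule and T cells was tested with an interaction term, in a model that held each library as a block. No subunit passed the threshold by edgeR's quasi-likelihood test, none had an unadjusted p under 0.05, and 0.0346% of all genes were called. The median interaction was -0.02. The smallest p-values were those of Ndufv1 (0.31, SE 0.53) and Ndufa9 (0.26, SE 0.52), each with an adjusted p of 1. Without mutant library 1 or wild-type library 1 all 35 interactions were positive, and without mutant library 2 and wild-type library 2 the counts were 1 and 0.

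The other genes of the pathway were compared between genotypes in the same proximal tubule fit, and none was called. The median log2 fold change was 0.34 for 16 assembly factors, led by Ndufaf3 (0.74, SE 0.44) and Ndufaf5 (0.48, SE 0.35). It was 0.51 for 39 nuclear subunits of complexes II to V, 39 of them positive, with Atp5h (0.73, SE 0.59) and Atp5b (0.76, SE 0.64), both of ATP synthase. The median of the complex I subunits in the same fit was 0.52. Of 8 regulators 6 were negative, with Ppargc1b (-0.94, SE 0.35) and Ppargc1a (-0.69, SE 0.45), coactivators of mitochondrial biogenesis, having the smallest p-values. Of the mitochondrially encoded complex I subunits mt-Nd6 (-1.73, SE 0.62, edgeR adjusted p = 0.296) and mt-Nd3 (-0.80, SE 0.63) were negative and 5 of 7 positive.

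The balance of the 2 genomes can be read as mitochondrially encoded complex I UMIs per nuclear subunit UMI. In the proximal tubule it was 0.937, 2.52, 1.76 and 2.90, and in T cells 0.756, 1.46, 1.16 and 2.21, so the lowest ratio was in mutant library 1 and the highest in wild-type library 2. The genotypes were interleaved in both classes. Within the proximal tubule, the ratio was 0.157, 0.324, 0.128 and 0.476 in the mitochondria-poor cluster 2, in the same order of libraries. In cluster 6 it was 1.47, 3.76, 3.37 and 4.67. Cluster 2 held 47.2%, 26.2%, 25.2% and 10.6% of the proximal tubule cells. The part of cluster make-up in the ratio was not tested, and barcodes above 50% mitochondrial UMIs had been dropped.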

How the data were processed

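Deposited gene by cell matrices hold raw UMI counts, not normalized, made by the authors with Cell Ranger 7.0.0 for the mutant and 7.1.0 for the wild-type libraries and genome build mm10, per the submitters' processing notes. The annotation release and the handling of intronic reads were not found in the labels. Barcodes were dropped below 200 genes or 500 UMIs, above 50% mitochondrial UMIs, or when called a doublet by Scrublet. Clusters were made with scanpy 1.11.5 and leidenalg 0.10.2 (2000 variable genes, resolution 1) and named from marker lists. Counts were summed per library and class, for classes with at least 50 cells in every library, and compared with edgeR 4.0.16 (TMM scaling, filterByExpr, quasi-likelihood test, Benjamini-Hochberg adjustment within a fit, threshold 0.05) in R 4.3.3. Class contrasts and the interaction carried the library as a block. DESeq2 1.42.0, other scalings, filters and left-out libraries were tried as alternatives, and the procedure was tested on simulated data. Named subunits were the 3 with the smallest p in each class, the 3 widest and 3 narrowest tubule to immune differences, the 2 smallest interaction p-values and up to 2 genes of each other list. The members and lists were chosen with earlier results of these data known. Gene positions are from GENCODE M21 and promoter windows from RefSeq.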

Additional observations from a re-analysis of the deposited data

How the results depend on the processing

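All 35 subunits were called higher in tubule than immune classes under each of 8 alternatives. Between genotypes, leaving out 1 library gave 0 to 32 called subunits in the proximal tubule (median log2 fold change 0.10 to 1.18), 0 to 2 in the thick ascending limb (0.37 to 0.61), 0 to 3 in NK cells, 0 to 1 in dendritic cells and 0 to 3 in macrophages. The medians ran from 0.27 to 0.97 in NK cells, 0.26 to 1.00 in dendritic cells, 0.40 to 1.31 in macrophages, 0.21 to 0.98 in T cells, 0.22 to 0.93 in B cells and 0.16 to 0.96 in monocytes. Each count above 0 came without wild-type library 1, where 3.92% of all genes were called in NK cells, 4.15% in dendritic cells and 2.68% in macrophages. With library totals the median was 0.0029 in the distal convoluted and connecting tubule and 0.27 in the thick ascending limb. Single-gene values were tried for some pairs of gene and fit only, so they do not measure stability over all subunits. Of these 454 values, 449 kept their direction and side of the threshold. The rest crossed it, all without wild-type library 1. The cause was not tested.

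Between classes, counts of called subunits moved most with library totals: from 2 to 10 for B cells against T cells (9 of them lower, 31.2% of all genes called), 5 to 20 for distal against proximal tubule (all higher, 46.0%), 9 to 30 for macrophages against T cells (29 lower, 57.7%) and 3 to 16 for thick ascending limb against proximal tubule (all higher, 39.8%), where RLE scaling gave 6. For monocytes the count went from 9 to 11, and from 2 to 9 lower (54.9%). Without mitochondrial genes they were 4 for B cells and 15 for macrophages. With no filter on low counts they were 1 for B cells, 3 for distal against proximal tubule, 4 for monocytes and 1 for thick ascending limb against proximal tubule. Leaving out 1 library gave 0 to 6 for B cells, 1 to 9 for distal against proximal tubule, 4 to 15 for macrophages, 3 to 7 for monocytes, 0 to 1 for thick ascending limb against distal tubule and 1 to 5 against proximal tubule.

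The replicate number in the titles does not mark a shared animal or batch in the sources used here. With it as a block, 0 subunits were called in each class and the median in the proximal tubule was 0.63. The correlation of deviations of same-numbered samples ran from -0.17 in the proximal tubule to 0.27 in monocytes and was positive in 7 of 9 classes. With 2 libraries per genotype, the correlation of crossed samples is the same value with the opposite sign. The classes also come from the same libraries, so the count of positive classes cannot show whether samples are paired. The crossed block was fitted in the proximal tubule only, where it called 0 subunits and 3.51% of all genes.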

Other observations

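Some classes had too few cells in a library for a test. Intercalated cells had 26086, 30981, 29995 and 16582 CPM of summed subunits in mutant 1, mutant 2, wild type 1 and wild type 2, and the thin limb had 14906, 13755, 13139 and 5530 CPM, with wild-type library 2 lowest in both. Its intercalated class held 37 cells, with 3562 CPM of proximal tubule markers against 293 to 557 CPM in the other libraries, 13.9% mitochondrial UMIs against 5.31% to 8.56%, and the highest Malat1 (27340 CPM). In the thin limb it had 21 cells and 67660 CPM of Malat1, against 15522 to 29512 CPM. The part of these in the low values was not tested. Plasma cells had 3838, 2496, 2694 and 4071 CPM, so there wild-type library 2 was highest. Podocytes of mutant library 1 had 8934 CPM. An unnamed class joined a cluster of 754 shallow cells and a cluster of 24 cells that were not shallow. It held 39, 19, 11 and 709 cells in mutant 1, mutant 2, wild type 1 and wild type 2.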
